A study of Mus musculus with 8 samples.

Results

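The definitive endoderm (DE) genes described here are 10 of the 18193 genes named on the larger array: the transcription factors Sox17, Hhex and Gata6, the receptors Cxcr4 and Gprc5c, the hormone precursors Trh and Pyy, the carboxypeptidases Cpm and Cpn1, and the proteoglycan Nepn. They were chosen by name, and every probe set annotated to them was used, which gave 9 probe sets for 6 genes on the Affymetrix U74Av2 array and 16 probe sets for all 10 genes on the MOE430v2 array. A probe set is a group of short probes that measures 1 transcript. RNA came from pools of mouse embryos at embryonic day 7.5, with 53 and 48 embryos in the 2 Foxa2 null pools and 53 and 50 in the 2 wild-type pools, and each of the 4 extracts was hybridized to both platforms. The second platform therefore re-measured the same extracts, and n was 2 pools per genotype throughout. The mutant embryos were made by aggregating Foxa2 null embryonic stem (ES) cells with wild-type tetraploid host embryos, and wild-type embryos were collected from ICR matings. The extra-embryonic region had been dissected away, sexes were mixed, and host-derived visceral endoderm (VE) was kept on the mutant embryos, so in these pools genotype and embryo origin cannot be told apart. The labels give the strain ICR also for the mutant pools on MOE430v2 and name no strain for them on U74Av2. All pools spanned the mid-streak to headfold stages, and by the study's staging wild-type pool 2 was the youngest.

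The DE is formed during gastrulation, when epiblast cells pass through the anterior primitive streak and are inserted into the outer cell layer, and it later lines the gut and gives rise to organs such as the liver, pancreas, thyroid and lung. The VE is an older, extra-embryonic layer that covers the epiblast before gastrulation and is largely pushed aside by the incoming DE. Both layers use some of the same transcription factors. Foxa2, a forkhead factor, is made in the anterior streak, node, DE and VE. Among the 10 genes, Sox17, Hhex and Gata6 are also made by VE, and the other 7 were not assigned to it here. In RNA from whole pools, fewer cells of a type and less RNA per cell cannot be told apart. Sox17, Trh, Gprc5c, Cpn1 and Cpm are among the genes that the study itself listed as reduced in these pools, so their direction is not independent evidence. The study used MAS5 change calls between arrays on U74Av2 and a paired Wilcoxon test on single probes on MOE430v2. A gene can thus be listed by the study and not pass the test used here. By quantitative PCR on a further pair of pools, which is not part of these data, the study also found Sox17 reduced. Trh, Gprc5c, Cpn1 and Cpm were not among the genes it measured that way.

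Proximal promoter sequence is shown for 4 of the genes that lead the results or carry a forkhead motif, as RefSeq places them on build GRCm38.p6. Windows of 7 of the 10 genes were used. Each was searched in the 250 bases before the start site, on both strands, for the forkhead letters TGTTTAC or TATTTAC or TGTTGAC or TATTGAC, and a match was found in 3 of the 7 genes. Of 32851 mouse promoter windows of the same length, 8.77% held such a match. Trh (chr6:92244651-92244900, minus strand) held GTCAATA, the opposite-strand form, starting 201 bases before the start site. Cpn1 (chr19:43986552-43986770, minus strand) has a start site inside the annotated gene. The 31 bases of its window that lie inside the gene are not printed. Cpn1 held TGTTTAC at 65 bases before that start site, counted with the bases not printed. Nepn (chr10:52391358-52391607, plus strand, a start site inside the annotated gene) held the same letters at 158 bases. Cpm (chr10:117629250-117629499, plus strand), which had the lowest tested log2 ratio of the group, held none in this window. Capitals mark the forkhead match in the sequences below, which run 5′ to 3′ on the strand of the gene.
Trh: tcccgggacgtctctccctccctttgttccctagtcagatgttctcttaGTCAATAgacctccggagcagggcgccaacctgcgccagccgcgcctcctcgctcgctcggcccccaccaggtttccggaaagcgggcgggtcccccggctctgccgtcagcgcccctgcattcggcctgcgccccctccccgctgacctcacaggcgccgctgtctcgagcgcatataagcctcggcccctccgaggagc
Cpn1: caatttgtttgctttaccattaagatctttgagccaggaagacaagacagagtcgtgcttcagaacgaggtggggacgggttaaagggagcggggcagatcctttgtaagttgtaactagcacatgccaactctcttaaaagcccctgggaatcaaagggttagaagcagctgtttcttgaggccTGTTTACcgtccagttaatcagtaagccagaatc
Nepn: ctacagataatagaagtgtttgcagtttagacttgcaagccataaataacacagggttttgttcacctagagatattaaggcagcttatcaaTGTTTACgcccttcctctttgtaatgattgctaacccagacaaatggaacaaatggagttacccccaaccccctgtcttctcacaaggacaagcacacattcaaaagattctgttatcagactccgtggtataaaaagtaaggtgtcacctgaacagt
Cpm: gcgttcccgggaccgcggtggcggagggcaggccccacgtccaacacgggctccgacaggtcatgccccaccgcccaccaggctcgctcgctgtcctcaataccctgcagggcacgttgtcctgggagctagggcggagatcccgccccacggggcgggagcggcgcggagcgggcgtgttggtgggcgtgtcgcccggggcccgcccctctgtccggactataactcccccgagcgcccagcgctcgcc
The GATA letters AGATAA or TGATAA, which do not overlap the forkhead match, were found at 3 places in the Nepn window and in none of the others shown, against 16.6% of all promoter windows. A match is a description of the letters and not a measured binding site.

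The targeted gene had a lower signal in each Foxa2 null pool than in either wild-type pool on both arrays, and did not pass the test. Foxa2 had a log2 signal of 6.39 and 6.55 in Foxa2 null pools, against 7.37 and 8.08 in wild-type pools, on U74Av2 (log2 ratio -1.25, standard error (SE) 0.26, adjusted p = 0.130 by limma with Benjamini-Hochberg). On MOE430v2 it had 8.96 and 9.06 in Foxa2 null pools, against 9.62 and 10.17 in wild-type pools (log2 ratio -0.88, SE 0.21, adjusted p = 0.141 by limma). It is not known whether these probe sets lie in the deleted part of the gene. Ratios here are Foxa2 null minus wild-type on the log2 scale, and the median over all genes was -0.029 on U74Av2 and -0.012 on MOE430v2.

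Gprc5c and Cpm passed the test, each at 1 of their 2 probe sets on MOE430v2. Gprc5c, an orphan receptor of the retinoic acid-inducible family, was 3.12-fold lower in Foxa2 null pools, and Cpm, a membrane-bound carboxypeptidase that removes terminal arginine and lysine from peptides, was 5.38-fold lower. In all, 2 of the 15 tested member probe sets on MOE430v2 were lower at an adjusted p under 0.05 by limma with Benjamini-Hochberg adjustment, against 0.244% of the 31526 probe sets tested, and 0 were higher. On U74Av2, which measures neither Gprc5c nor Cpm, 0 of 9 passed in either direction, against 0.173% lower among 8695 probe sets tested. At an unadjusted p under 0.05, 7 of 15 member probe sets were lower on MOE430v2 and 3 of 9 on U74Av2, and 0 were higher on either, where 6.07% and 5.01% of all tested probe sets were lower. Several probe sets measure the same gene and the platforms share their extracts, so these counts are not counts of independent events. Every probe set counted as lower here belongs to Sox17, Trh, Gprc5c, Cpm or Cpn1. The study listed these genes as reduced in these pools, so the excess over all probe sets is not independent evidence. Both calls were lost with no filter on low signals and when limma was fitted with no intensity trend.

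**Figure D1:**
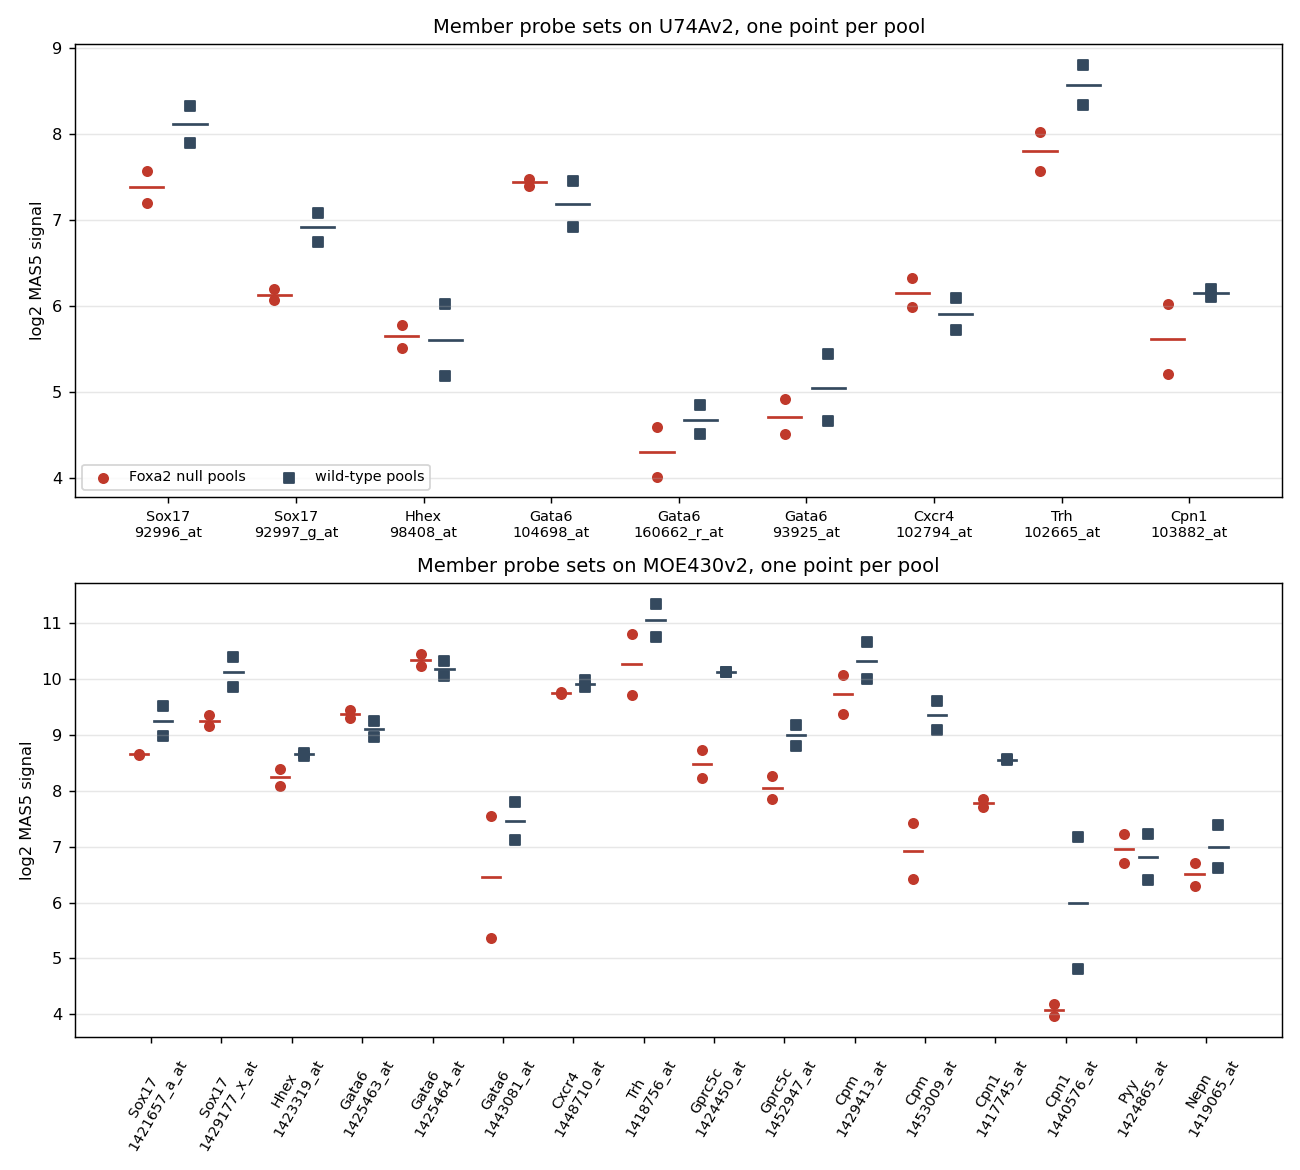
Log2 MAS5 signal of every member probe set (vertical axis) in the 2 Foxa2 null pools (red circles, left) and the 2 wild-type pools (dark squares, right) on U74Av2 (top) and MOE430v2 (bottom), with a line at each mean of 2. Both Foxa2 null pools lie below both wild-type pools in 4 of 9 probe sets on U74Av2, against 21.4% of all tested probe sets. On MOE430v2 they do so in 9 of 16, or in 8 of the 15 tested, against 21.8% of all tested probe sets. The widest separation is at Cpm 1453009_at and Gprc5c 1424450_at.

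Sox17, an HMG-box factor required for DE formation in the mouse, was measured by 4 probe sets, and each was lower in both Foxa2 null pools than in both wild-type pools. On MOE430v2, 1429177_x_at had a log2 signal of 9.36 and 9.15 in Foxa2 null pools, against 9.86 and 10.39 in wild-type pools (log2 ratio -0.87, SE 0.21, adjusted p = 0.135 by limma). The suffix x marks a probe set that may also match other transcripts. On the same array 1421657_a_at had 8.65 and 8.66 in Foxa2 null pools, against 8.98 and 9.52 in wild-type pools (log2 ratio -0.60, SE 0.23, adjusted p = 0.349 by limma). On U74Av2, 92996_at had 7.57 and 7.19 in Foxa2 null pools, against 7.90 and 8.32 in wild-type pools (log2 ratio -0.73, SE 0.22, adjusted p = 0.253 by limma). At 92997_g_at the signals were 6.20 and 6.07 in Foxa2 null pools, against 6.75 and 7.08 in wild-type pools (log2 ratio -0.78, adjusted p = 0.247 by limma). Wild-type pool 2, the youngest by staging, had the highest Sox17 signal of the 4 pools at every probe set. Its relatives were not called and lay on both sides of 0, with Sox7, an endoderm factor also made by VE, at 0.45 on U74Av2 and 0.31 on MOE430v2 and Sox18, an endothelial factor, at -0.38 and -0.93.

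Hhex, a homeobox factor of the anterior DE and of the liver and thyroid rudiments, was not measured alike by the 2 platforms. On MOE430v2 its signal was 8.09 and 8.39 in Foxa2 null pools, against 8.68 and 8.63 in wild-type pools (log2 ratio -0.42, 95% confidence interval -0.95 to 0.11, adjusted p = 0.529 by limma). On U74Av2 it was 5.78 and 5.51 in Foxa2 null pools, against 6.02 and 5.19 in wild-type pools (log2 ratio 0.044, interval -0.73 to 0.82, adjusted p = 0.985 by limma). The groups were separate on MOE430v2, while on U74Av2 both Foxa2 null pools lay between the wild-type pools.

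Gata6, a zinc finger factor of primitive endoderm and of later gut and heart, did not pass the test at any of its probe sets. Its brightest MOE430v2 probe set, 1425464_at, had 10.45 and 10.24 in Foxa2 null pools, against 10.33 and 10.05 in wild-type pools (log2 ratio 0.16, interval -0.20 to 0.52, adjusted p = 0.737 by limma). The probe set 1425463_at had 9.44 and 9.30 in Foxa2 null pools, against 9.24 and 8.97 in wild-type pools, and was the only member probe set with both Foxa2 null pools above both wild-type pools (log2 ratio 0.26, adjusted p = 0.635 by limma). On U74Av2, 104698_at had 7.40 and 7.48 in Foxa2 null pools, against 7.45 and 6.92 in wild-type pools (log2 ratio 0.25, interval -0.25 to 0.76, adjusted p = 0.781 by limma). Its dimmer probe sets had ratios below 0, with -0.38 at 160662_r_at and -0.33 at 93925_at on U74Av2. At 1443081_at on MOE430v2 the signal was 2.01-fold lower and this rested on Foxa2 null pool 1, with 5.37 and 7.55 in Foxa2 null pools, against 7.79 and 7.13 in wild-type pools, and the log2 ratio was 0.086 without that pool. Its relative Gata4 was at 0.27 on U74Av2 and 0.30 on MOE430v2, while Gata5 was at -1.58 (untested) and -0.37, none of them called.

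Cxcr4, the receptor for the chemokine Cxcl12 and a surface marker of DE made from ES cells, did not pass the test on either platform. On MOE430v2 it had a log2 signal of 9.74 and 9.77 in Foxa2 null pools, against 9.99 and 9.85 in wild-type pools (log2 ratio -0.16, interval -0.51 to 0.18, adjusted p = 0.716 by limma). On U74Av2 it had 5.99 and 6.32 in Foxa2 null pools, against 6.09 and 5.73 in wild-type pools (log2 ratio 0.25, interval -0.36 to 0.85, adjusted p = 0.829 by limma). The sign differed between platforms, and the groups overlapped on U74Av2 only. Its ligand Cxcl12 had a log2 ratio of 0.55 on U74Av2 (adjusted p = 0.331 by limma) and 0.49 on MOE430v2 (adjusted p = 0.198 by limma). Ackr3, which also binds Cxcl12, had log2 ratios of -0.069 and 0.0070.

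Gprc5c (chr11:114851150-114872617) is on MOE430v2 only. At 1424450_at it had a log2 signal of 8.24 and 8.73 in Foxa2 null pools, against 10.13 and 10.12 in wild-type pools (log2 ratio -1.64, SE 0.21, interval -2.11 to -1.17, adjusted p = 0.0161 by limma with Benjamini-Hochberg). The wild-type pools were nearly equal, and the gap between genotypes was wider than the spread within either. At 1452947_at it had 7.85 and 8.26 in Foxa2 null pools, against 8.81 and 9.19 in wild-type pools (log2 ratio -0.94, SE 0.25, adjusted p = 0.181 by limma). Its relative Gprc5b had a log2 ratio of 1.02 (SE 0.32, adjusted p = 0.251 by limma) and Gprc5a of 0.31 (adjusted p = 0.661 by limma), while Gprc5d was too dim to be tested (-0.27). Leaving out wild-type pool 1 ended the Gprc5c call at a ratio of -1.64 (adjusted p = 0.0798 by limma), and leaving out wild-type pool 2 did so at -1.65 (adjusted p = 0.104 by limma).

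Trh, which encodes the prohormone of thyrotropin-releasing hormone and marks early foregut endoderm, had a ratio near that of Sox17 on both platforms. On U74Av2 it had a log2 signal of 7.57 and 8.02 in Foxa2 null pools, against 8.33 and 8.80 in wild-type pools (log2 ratio -0.77, SE 0.22, adjusted p = 0.247 by limma). On MOE430v2 it had 9.72 and 10.81 in Foxa2 null pools, against 10.76 and 11.35 in wild-type pools (log2 ratio -0.79, SE 0.32, adjusted p = 0.370 by limma). The groups were separate on U74Av2, and on MOE430v2 Foxa2 null pool 2 lay just above wild-type pool 1. The MOE430v2 ratio of Trh was -0.25 without Foxa2 null pool 1 (adjusted p = 0.809 by limma) and -1.34 without Foxa2 null pool 2 (adjusted p = 0.0225 by limma). Pyy, which encodes the gut hormone peptide YY, had 7.23 and 6.70 in Foxa2 null pools, against 7.23 and 6.40 in wild-type pools, on MOE430v2 (log2 ratio 0.15, interval -0.91 to 1.22, adjusted p = 0.929 by limma). The Pyy groups overlapped, and the interval spans a change of either sign. Its relative Npy, a neuropeptide, was at 0.73 on U74Av2 and 0.53 on MOE430v2, and Ppy at 0.35 and 0.36 (untested on MOE430v2). The Trh receptor gene Trhr was too dim to be tested, at -2.56 and -1.44. Of the enzymes that process prohormones, Pcsk1 was at -1.18 (untested) and -0.13 and Pam at -0.31 and -0.0022, and none of these relatives was called.

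Cpm (chr10:117629500-117687352) had the lowest tested ratio of the group, at 1453009_at on MOE430v2. Its log2 signal there was 7.42 and 6.42 in Foxa2 null pools, against 9.61 and 9.09 in wild-type pools (log2 ratio -2.43, SE 0.36, interval -3.25 to -1.61, adjusted p = 0.0308 by limma with Benjamini-Hochberg). At the brighter probe set 1429413_at it was 9.37 and 10.08 in Foxa2 null pools, against 10.66 and 9.99 in wild-type pools (log2 ratio -0.60, SE 0.27, interval -1.21 to 0.012, adjusted p = 0.423 by limma). The intervals of the 2 Cpm probe sets did not overlap, and the genotypes overlapped only at the brighter one. Leaving out wild-type pool 1 ended the call at 1453009_at at a ratio of -2.17 (adjusted p = 0.144 by limma), and leaving out wild-type pool 2 did so at -2.68 (adjusted p = 0.104 by limma).

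Cpn1, the catalytic subunit of the plasma enzyme carboxypeptidase N, was lower in both Foxa2 null pools than in both wild-type pools at all 3 of its probe sets, and none passed the test. On MOE430v2, 1417745_at had 7.85 and 7.72 in Foxa2 null pools, against 8.55 and 8.57 in wild-type pools (log2 ratio -0.77, SE 0.25, adjusted p = 0.252 by limma). On U74Av2, 103882_at had 6.02 and 5.21 in Foxa2 null pools, against 6.19 and 6.11 in wild-type pools (log2 ratio -0.54, SE 0.32, adjusted p = 0.642 by limma). The third probe set, 1440576_at, was too dim to be tested, at 4.18 and 3.97 in Foxa2 null pools, against 4.81 and 7.18 in wild-type pools. Among other carboxypeptidases, Cpe, which trims prohormones, had log2 ratios of 0.75 on U74Av2 (adjusted p = 0.172 by limma) and 0.66 on MOE430v2 (adjusted p = 0.231 by limma), and Cpd had 0.12 and -0.22. On MOE430v2 Cpn2, the partner subunit of Cpn1, was at -0.59 and Cpz at -1.82, both too dim to be tested.

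Nepn encodes nephrocan, a small leucine-rich proteoglycan that marks mouse gut endoderm, and is on MOE430v2 only. Its log2 signal was 6.30 and 6.71 in Foxa2 null pools, against 6.61 and 7.38 in wild-type pools (log2 ratio -0.49, interval -1.59 to 0.60, adjusted p = 0.731 by limma). The groups overlapped, and its signal was near the middle of all probe sets (percentile 44.9). Of the 6 related proteoglycans, 5 were below 0 on MOE430v2, with Lum at -1.81 (untested), Fmod at -1.70 (SE 0.65, adjusted p = 0.346 by limma), Bgn at -0.77, Epyc at -0.70 and Dcn at -0.54, while Ogn was at 1.03 (untested). On U74Av2, 4 of 6 were below 0, with Fmod at -0.93 (untested), Lum at -0.84, Bgn at -0.44 and Dcn at -0.37, while Ogn was at 0.40 and Epyc at 0.48 (both untested). None of them was called.

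**Figure D2:**
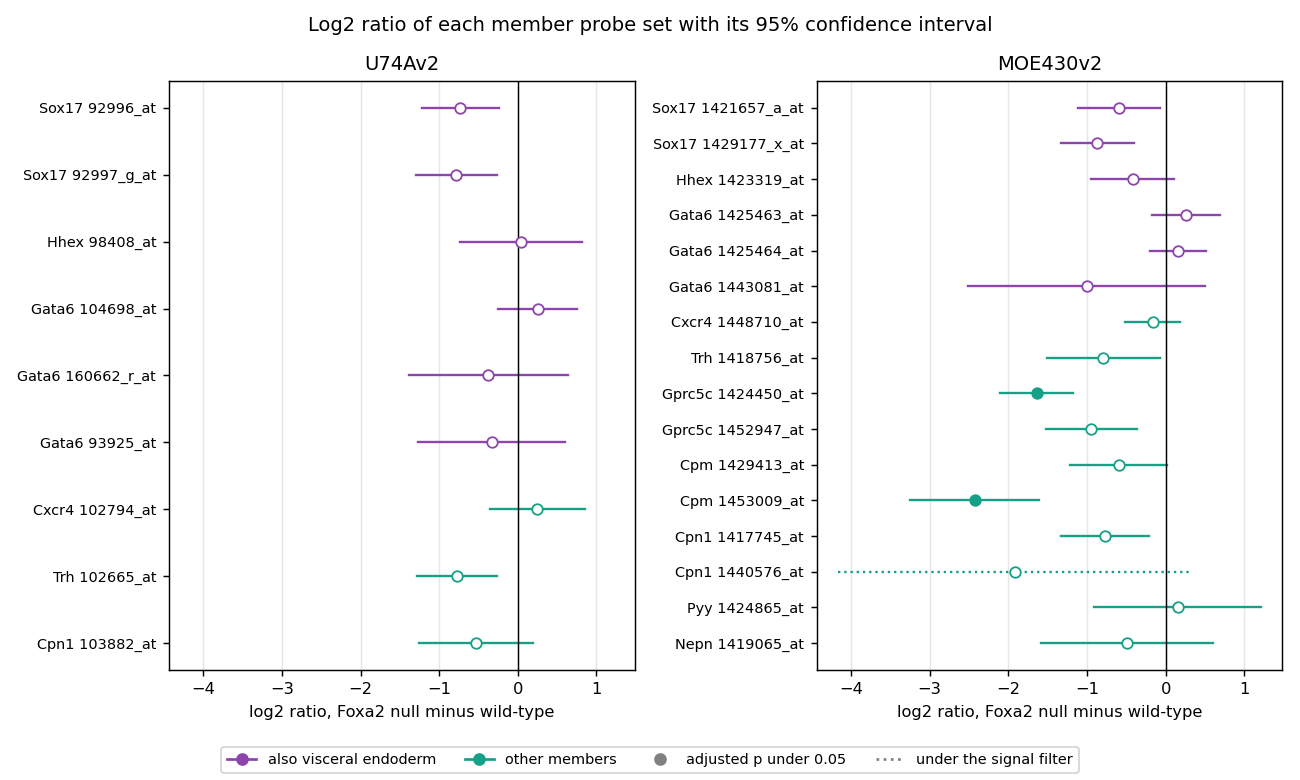
Log2 ratio, Foxa2 null minus wild-type (horizontal axis), of each member probe set on U74Av2 (left) and MOE430v2 (right), with 95% confidence intervals from limma. Purple marks Sox17, Hhex and Gata6, green the other members, filled points an adjusted p under 0.05 and a dotted line a probe set under the signal filter; the filled points are Gprc5c at -1.64 and Cpm at -2.43.

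The ratio was below 0 in 8 of 10 member genes on MOE430v2 and in 3 of 6 on U74Av2, using for each gene its probe set with the highest mean signal. Over all genes it was below 0 in 9336 of 18193 on MOE430v2 and in 4415 of 8251 on U74Av2. The median log2 ratio of the member genes was -0.55 on MOE430v2 and -0.25 on U74Av2, beside -0.012 and -0.029 over all genes. Over Sox17, Hhex and Gata6 the median was -0.42 on MOE430v2 and 0.044 on U74Av2, which on each array is the value of Hhex alone. Over the other members the median was -0.60 for 7 genes on MOE430v2 and -0.54 for 3 genes on U74Av2, the latter being the value of Cpn1 alone. Leaving out 1 pool moved the median of the other members to -0.25 on MOE430v2 (without Foxa2 null pool 1) and to -0.13 on U74Av2 (without Foxa2 null pool 2). For Sox17, Hhex and Gata6 on U74Av2 it reached -0.37 when wild-type pool 2 was left out, and 0.46 when wild-type pool 1 was, and on MOE430v2 it was -0.27 without Foxa2 null pool 1. Each of these values too is that of Hhex. The difference between the 2 classes was not tested, and within the first class Sox17 was below 0 on both platforms while Gata6 was above 0 on both at its brightest probe set. Both Foxa2 null pools lay below both wild-type pools in 8 of the 15 tested member probe sets on MOE430v2, against 21.8% of all tested probe sets, and in 4 of 9 on U74Av2, against 21.4%. Of these member probe sets, all but those of Hhex and Cxcr4 on MOE430v2 are of genes that the study listed as reduced.

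For the 6 member genes on both arrays, each extract's log2 signals were averaged over the arrays after centring by gene, and 1 fit was made over 5933 genes. In this fit 0 of 6 passed by limma with Benjamini-Hochberg adjustment, against 1.06% of genes that were lower. Sox17 lay just outside the threshold, with a log2 ratio of -0.80 (SE 0.18, interval -1.21 to -0.39, adjusted p = 0.0538 by limma). Trh had -0.78 (SE 0.24, adjusted p = 0.144 by limma), and Cpn1 had -0.65 (SE 0.23, adjusted p = 0.200 by limma). Hhex had -0.19 (interval -0.69 to 0.32), Cxcr4 had 0.041 (interval -0.34 to 0.42) and Gata6 had 0.20 (interval -0.15 to 0.56). The intervals of Sox17, Trh and Cpn1 lay below 0. Sox17 passed the threshold without Foxa2 null pool 1 (-0.94, adjusted p = 0.00140 by limma), without Foxa2 null pool 2 (-0.66, adjusted p = 0.0407 by limma) and without wild-type pool 1 (-1.04, adjusted p = 0.0313 by limma), but not without wild-type pool 2 (-0.56, adjusted p = 0.234 by limma). Trh passed without Foxa2 null pool 2 (-1.17, adjusted p = 3.9e-05 by limma), and no other member passed in the fits that left out a pool, which were added after the data had been seen.

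**Figure D3:**
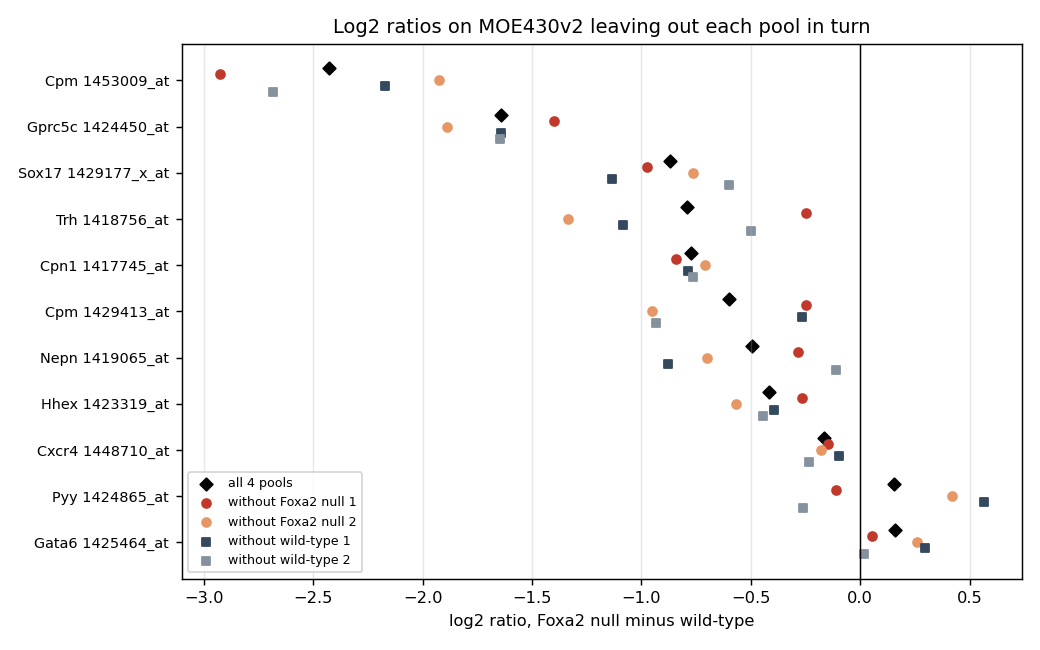
Log2 ratio, Foxa2 null minus wild-type (horizontal axis), of the brightest MOE430v2 probe set of each member and of the called Cpm probe set, with all 4 pools (diamonds) and leaving out each Foxa2 null pool (circles) or wild-type pool (squares). Cpm 1453009_at and Gprc5c 1424450_at lie below -1 in every fit, Trh runs between -1.34 and -0.25, and Pyy lies on both sides of 0.

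Markers of VE were measured beside the members, since 3 members are shared with that layer. The study states that mutant embryos, unlike wild-type ones, do not displace their VE and so seem strongly enriched in VE markers. It showed no values for this, and for this reason it left genes higher in the mutant aside. The labels name the tissue as epiblast. Of 22 listed VE genes, 13 of the 18 on U74Av2 and 16 of the 19 on MOE430v2 had a ratio above 0, with medians of 0.28 and 0.24. Over all genes, 3836 of 8251 and 8857 of 18193 were above 0. By limma with Benjamini-Hochberg 0 VE genes passed on U74Av2 or MOE430v2. At an unadjusted p under 0.05 there were 5 higher and 1 lower on U74Av2 and 7 higher and 0 lower on MOE430v2, where 5.01% and 6.03% of all tested probe sets were higher. Mttp, which loads lipid onto apolipoprotein B, was highest on U74Av2 at 1.02 and Apob was highest on MOE430v2 at 0.71. Afp, the fetal serum protein alpha-fetoprotein, was lowest on U74Av2 at -0.48 but at 0.43 on MOE430v2, and the endocytic receptor Lrp2 was lowest on MOE430v2 at -0.32. The filter on low signals was passed by 17 of 18 VE genes on U74Av2, all but Hnf4a (percentile 18.5 of mean signal), and by 19 of 19 on MOE430v2.

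The VE genes were highest in Foxa2 null pool 1. Their summed signal on MOE430v2 was 109110 and 85355 in Foxa2 null pools, against 80700 and 83772 in wild-type pools. On U74Av2 it was 13827 and 9359 in Foxa2 null pools, against 9531 and 9437 in wild-type pools. Without Foxa2 null pool 1 the VE median was 0.036 on U74Av2, with 9 of 18 genes above 0, and 0.13 on MOE430v2, with 12 of 19 above 0. In the same pool the median deviation from the mean of the 4 pools on MOE430v2 was -0.33 for the members shared with VE and -0.46 for the others. On U74Av2 these deviations were 0.086 and -0.044. Single members differed from these medians. On MOE430v2 Gata6 at 1425464_at (10.45) and 1425463_at (9.44), and by a narrow margin Pyy (7.23), had their highest signal in Foxa2 null pool 1. At 1443081_at Gata6 had its lowest signal there (5.37). Without that pool the median of all member genes was -0.26 on MOE430v2 and -0.32 on U74Av2, and Gprc5c 1424450_at (-1.40) and Cpm 1453009_at (-2.93) were still called by limma. The part of VE content in the ratios of Sox17, Hhex and Gata6 was not tested.

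**Figure D4:**
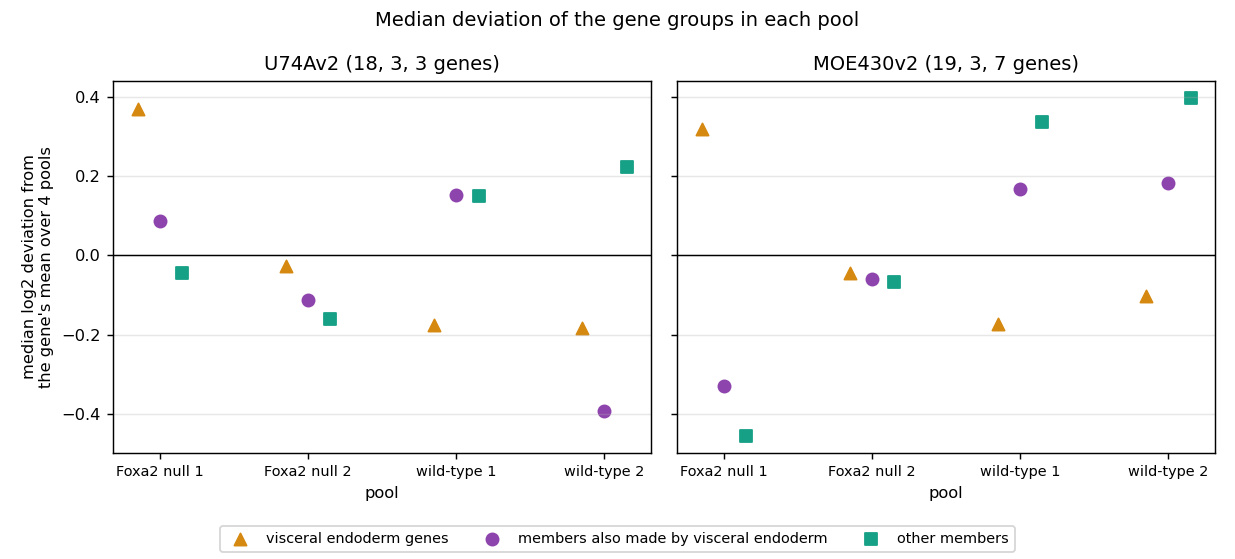
Median log2 deviation from each gene's mean over the 4 pools (vertical axis) in Foxa2 null pools 1 and 2 (left) and wild-type pools 1 and 2 (right), for VE genes (triangles), members also made by VE (circles) and other members (squares), on U74Av2 and MOE430v2. VE genes are highest in Foxa2 null pool 1 (0.37 and 0.32), while the other members lie below 0 in both Foxa2 null pools and above 0 in both wild-type pools.

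Other genes of the DE were read beside the members from lists fixed by name. Over all genes, 4415 of 8251 were below 0 on U74Av2 and 9336 of 18193 on MOE430v2. Of the study's other DE and organizer genes, which it chose on these samples, 8 of 9 were below 0 on U74Av2 (median -0.77) and 10 of 10 on MOE430v2 (median -0.65). Cer1, which encodes a secreted inhibitor of Nodal and other signals, was called on U74Av2 (log2 ratio -1.82, SE 0.23, adjusted p = 0.0313 by limma), and Foxa1, the closest relative of Foxa2, was called on MOE430v2 (log2 ratio -1.54, SE 0.24, adjusted p = 0.0341 by limma). The highest on U74Av2 was Efhd2 at 0.19, which was also the highest on MOE430v2 at -0.039. Of the textbook DE genes, 11 of 16 were below 0 on U74Av2 (median -0.11) and 14 of 19 on MOE430v2 (median -0.22). Their only calls were Cer1 on U74Av2 and Foxa1 on MOE430v2, which stand in both lists, and Eomes, a T-box factor needed for DE specification, had the highest tested ratio at 1.92 on U74Av2 (adjusted p = 0.251 by limma) and 1.34 on MOE430v2 (adjusted p = 0.259 by limma). Gsc was too dim to be tested on either array, at -0.81 on U74Av2 and 2.38 on MOE430v2, the highest ratio of the list there. Upstream in the Nodal pathway, which induces the DE, the medians were 0.15 for 11 genes on U74Av2 and -0.0025 for 13 on MOE430v2, with 0 called by limma. These medians depended on single pools, running from -0.011 (Foxa2 null pool 2 left out) to 0.32 (Foxa2 null pool 1 left out) on U74Av2, and from -0.22 (Foxa2 null pool 2) to 0.34 (wild-type pool 2) on MOE430v2. The lowest gene on both arrays was Lefty1 (-0.53 and -0.50, untested on MOE430v2), and the highest were Eomes on U74Av2 and Tdgf1, a Nodal co-receptor, on MOE430v2 (2.21, adjusted p = 0.147 by limma). At an unadjusted p under 0.05 by limma the Nodal list had 0 lower and 3 higher of 10 tested on U74Av2. On MOE430v2 it had 1 lower and 3 higher of 12. Over all genes tested, 319 were lower and 329 higher of 6410 on U74Av2, and 993 and 889 of 14180 on MOE430v2. Relatives and partners of the members had medians of -0.069 (19 genes) and -0.17 (24 genes), with 0 called by limma. At an unadjusted p under 0.05 they had 0 lower and 2 higher of 13 tested on U74Av2. On MOE430v2 they had 1 lower and 3 higher of 17. In this list the lowest ratios were Trhr on U74Av2 (-2.56) and Cpz on MOE430v2 (-1.82), both untested, and the highest were Cpe on U74Av2 (0.75) and Ogn on MOE430v2 (1.03, untested).

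Several members are also made outside endoderm, for example Sox17 and Cxcr4 in endothelium and Gata6 in heart mesoderm. The endothelial list had medians of -0.070 (9 genes, U74Av2) and 0.035 (11 genes, MOE430v2), which were 0.47 and 0.38 without Foxa2 null pool 2. With Foxa2 null pool 1 left out they were -0.21 and -0.16, and the MOE430v2 median was -0.25 with wild-type pool 2 left out. Its lowest gene was Tie1 (-1.07 and -1.67, both untested) and its highest Pecam1 (1.13 and 1.46). The heart mesoderm list had medians of -0.38 (7 genes, U74Av2) and 0.12 (10 genes, MOE430v2). On U74Av2 the median was 0.47 over the 5 genes tested, and over all 7 it was 0.24 when Foxa2 null pool 2 was left out. With Foxa2 null pool 1 left out it was -0.88 on U74Av2 and -0.026 on MOE430v2. Its lowest gene was Mef2c (-1.48, untested, and -1.12) and its highest Hand2 (1.04 and 0.79). By limma 0 genes of either list were called. At an unadjusted p under 0.05 the endothelial list had 0 lower and 1 higher of 7 tested on U74Av2. On MOE430v2 it had 1 lower and 0 higher of 10. The heart list had 1 lower and 3 higher of 5 tested on U74Av2, and 3 lower and 3 higher of 10 on MOE430v2. Over all genes tested, 319 were lower and 329 higher of 6410 on U74Av2, and 993 and 889 of 14180 on MOE430v2. The part of these tissues in the members' ratios was not tested.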

How the data were processed

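RNA of 4 embryo pools was measured on 8 arrays. The authors deposited 1 intensity for each probe set, a MAS5 signal on a linear scale, which they had scaled to 1 target per array (mean of 150 on U74Av2 and 500 on MOE430v2 after trimming 2% at each end). MAS5 is named in the submitters' processing notes. The methods name another target for U74Av2 and a loess step for MOE430v2, which the values do not show. R 4.3.3 and limma 3.58.1 were used on log2 signals. U74Av2 was used as scaled, with 4 values of 0 raised to 0.1 (none of them of a member), and MOE430v2 was normalized by cyclic loess. Control probe sets and the 30% with the lowest mean log2 signal were left out, which left 8695 of 12422 and 31526 of 45037 probe sets. Median signals ran from 48 to 52.8 on U74Av2 arrays and from 155 to 165 on MOE430v2 arrays, and the number of arrays limits the precision. Genes were named from the platform annotation where a probe set had 1 symbol (10833 and 34945 probe sets), and positions are of GRCm38.p6.

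Foxa2 null was compared with wild-type by limma (lmFit, then eBayes whose prior variance follows the intensity). Tests were two-sided and adjusted by Benjamini-Hochberg over all probe sets tested. With 2 pools per genotype the smallest p of an exact permutation test is 0.333. Nothing in the sources used here says how the pools were spread over matings. The p-values rest on the spread between these pools, with each probe set's variance drawn toward that of probe sets of like signal. All member probe sets are named, with the called, lowest and highest genes of each marker list, and the measured relatives and partners beside their member. The members and the lists (VE, other DE genes, Nodal pathway, relatives, parietal endoderm, endothelium, heart mesoderm, trophoblast, primitive blood) were chosen with earlier results of these data known. Untested genes lay under the filter. Alternatives were other normalizations, offsets, filters, variance models, a replicate block and leaving out each pool.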

Additional observations from a re-analysis of the deposited data

How the results depend on the processing

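On U74Av2, 15 probe sets were lower and 9 higher over the whole array. The counts were 3 and 0 with no filter on low signals and 0 and 0 with no intensity trend, and 25 were lower when 50% of the lowest signals were left out. On MOE430v2, 77 were lower and 60 higher, and the counts were 118 and 123 with an offset of 50, 27 and 16 with no filter, 146 and 178 with 50% left out, and 0 and 0 with no intensity trend. The member probe sets called on MOE430v2 numbered 0, against 2, with no filter (adjusted p = 0.0521 for Gprc5c and 0.101 for Cpm by limma) and 0 with no intensity trend (0.449 for each). Member genes, counted at the brightest probe set, numbered 0 in both settings, against 1. The other normalizations changed no member's call or direction.

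The replicate numbers are shared by genotypes in the labels. Over all tested probe sets, deviations of same-numbered pools correlated at 0.11 on U74Av2 and 0.085 on MOE430v2. Such a correlation cannot tell whether same-numbered pools shared a batch that moved some genes, and this was not tested. With the replicate block, U74Av2 had 129 lower and 163 higher of 8695 tested probe sets and MOE430v2 had 799 lower and 844 higher of 31526. The block adds a coefficient fitted to the same arrays, so fewer degrees of freedom are left for the variance. In that fit 2 member genes and 2 member probe sets were lower on U74Av2, 3 and 5 on MOE430v2, and 2 genes over both platforms. By limma with this block Sox17 and Trh passed over both platforms (adjusted p = 0.00171 and 0.000197), at 1429177_x_at and the Trh probe set on MOE430v2 (0.00130 and 0.000168) and at 92996_at and the Trh probe set on U74Av2 (0.0481 and 0.0123), and Gprc5c 1452947_at passed too (0.0111).

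Leaving out 1 pool at a time gave 11 to 29 lower and 2 to 19 higher probe sets on U74Av2, and 14 to 155 lower and 18 to 84 higher on MOE430v2. Member genes called lower ran from 0 to 2 on MOE430v2 and 0 to 2 over both platforms, and member probe sets from 0 to 3 on MOE430v2. The median of the member genes ran from -0.44 to -0.025 on U74Av2 (without wild-type pool 2 and without Foxa2 null pool 2) and from -0.71 to -0.26 on MOE430v2. Ratios that turned sign ran from -0.37 to 0.46 for Hhex 98408_at (also -0.090 without Foxa2 null pool 1), -0.015 to 0.52 for Gata6 104698_at, -0.72 to 0.055 for Gata6 93925_at, -2.09 to 0.086 for Gata6 1443081_at and -0.26 to 0.57 for Pyy (also -0.11 without Foxa2 null pool 1). Over both platforms they ran from -0.41 to 0.033 for Hhex and from -0.085 to 0.17 for Cxcr4 (also -0.051 without Foxa2 null pool 2). None of these was called, and the cause was not tested. A fit with 1 pool in a group takes that pool to vary like the others. The counts of member probe sets and the fits over both platforms were varied after the data had been seen.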

Other observations

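Tissues that could lie beside the epiblast gave no call. Parietal endoderm genes had median log2 ratios of -0.21 (10 genes, U74Av2) and -0.24 (10 genes, MOE430v2), trophoblast genes 0.47 (7 genes) and -0.22 (7 genes), and primitive blood genes -0.020 (6 genes) and -0.096 (6 genes). By limma with Benjamini-Hochberg 0 genes of these lists passed. At an unadjusted p under 0.05, parietal endoderm had 0 lower and 0 higher of 8 tested on U74Av2. On MOE430v2 it had 2 lower and 0 higher of 10. Trophoblast had 0 lower and 2 higher on each array, of 5 and 4 tested. These were Hand1 and Tfap2c, and Hand1 stands in the heart mesoderm list too. Blood had 0 lower and 2 higher of 6 tested on U74Av2, and 0 of either of 3 on MOE430v2. Over all genes tested, 319 were lower and 329 higher of 6410 on U74Av2, and 993 and 889 of 14180 on MOE430v2. For trophoblast on MOE430v2 and for blood on both arrays the sign of the median changed with the pool left out. Over the 4 trophoblast genes tested on MOE430v2 the median was 0.19, and over all 7 it was 0.22 without Foxa2 null pool 1. The blood median ran from -0.65 to 0.75 on U74Av2 and from -0.98 to 0.98 on MOE430v2 as each pool was left out, and the parietal endoderm median from -0.33 to -0.11 and from -0.32 to -0.038. The lowest and highest genes on U74Av2 and MOE430v2 were Thbd (-0.52, untested, and -1.40) with Lamc1 (0.15) and Nid1 (0.32) for parietal endoderm. For trophoblast they were Tpbpa (-0.57 and -0.95, both untested) with Ascl2 (0.82) and Elf5 (1.77, untested). For blood they were Hbb-y (-0.91, and -1.27 untested) with Klf1 (0.93, and 1.35 untested). The blood genes split the pools in another way than genotype did, with a summed MOE430v2 signal of 1648 and 330.3 in Foxa2 null pools, against 370.2 and 1330 in wild-type pools.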
